A study of Mus musculus with 6 samples.

Results

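Genes of the TGF-beta and BMP pathways were examined in the whole lung of late fetal mice (E18.5), 3 of them WT and 3 *Tnrc6a* null. The list holds 42 of the 19938 genes measured, chosen by gene symbol and sorted by role into 12 ligands, 10 receptors, 8 SMADs, 8 antagonists or latency proteins and 4 targets. Each lung came from a single embryo of C57Bl/6 background, and its total RNA was hybridised to 1 Affymetrix whole-transcript gene array. The null embryos (GW182gt/gt) were homozygous for a gene trap with β-galactosidase in *Tnrc6a*, which encodes a partner of the Argonaute proteins in the miRNA pathway, and the WT embryos were their littermates. The gene trap is carried by every cell, so the lung was not the only tissue without the gene. The labels tie no WT embryo to a null embryo and give neither sex nor litter, and the p-values therefore measure the spread among these lungs only. In whole lung, fewer cells of a type and less RNA per cell cannot be told apart.

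TGF-beta and BMP ligands are secreted dimers that bind type I and type II receptor kinases on the cell surface. The receptors phosphorylate receptor SMADs, which join the common SMAD and enter the nucleus, while inhibitory SMADs dampen the signal. TGF-beta is secreted in a latent form held in the matrix by latent TGF-beta binding proteins, and BMPs are held off their receptors by secreted antagonists. In the developing lung BMP signalling takes part in the growth of the distal epithelium and of vessels, and TGF-beta signalling in mesenchyme, matrix and septation.

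According to the labels the deposited values are log2. The fold ratios that the study lists elsewhere fit a natural logarithm better, so the base is uncertain. Each difference below is therefore null minus WT in units of the deposited log values, never a fold. Values of different genes come from different probes and were not ranked against each other as RNA levels. *Tnrc6a* itself lay at 7.38, 7.13 and 7.18 in WT and 5.45, 5.04 and 5.40 in null lungs. The difference was -1.93 (standard error 0.128, adjusted p = 0.00312 from limma), in the direction of the labels. WT replicate 1 and null replicate 3 correlated with each other at 0.992 across all genes, above the correlation of either with a lung of its own genotype (0.979 to 0.988), so results are also given without both. All 5 markers of lung epithelium had a signal above the median of all genes.

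None of the 42 pathway genes passed an adjusted p of 0.05 in limma, against 1 of all 19938 genes (0.00502%), and the smallest adjusted p was 0.89. At an unadjusted p under 0.05, 4 of 42 genes were lower in null lungs (9.52%) and 0 were higher, against 2.96% lower and 2.46% higher over all genes. These 4 were the ligands *Tgfb3* and *Bmp6*, the receptor *Bmpr2* and *Ltbp2*, a matrix protein gene grouped here with antagonists and latency proteins. In these and in *Ltbp3*, 5 genes in all (11.9%), the highest null lung was below the lowest WT lung, against 5.51% of all genes. No pathway gene was above WT in all 3 null lungs without overlap, against 4.67% of all genes. On average 29 of the 42 genes (69%) were lower and 12 were higher, with a median difference of -0.07 against 0 over all genes, of which 49.8% were lower. With median centring, which moved the median of all genes to -0.037, 35 were lower and 7 higher. Direction went with array signal in these lungs. Of the 42 pathway genes 31 had a signal above the median, where 65.4% of all genes were lower on average, against 77.4% of these 31. Of the 11 below the median 5 were lower and 5 higher. At an unadjusted p under 0.05, 5.26% of all genes above the median signal were lower, against 12.9% of the 31. Without overlap, 9.44% of all genes above the median signal were lower and 2.76% higher, against 16.1% and 0 of the 31. The count of 4 depended on single lungs: it was 8 if WT replicate 1 was left out, 1 if WT replicate 2 was, and 0 if either WT replicate 3 or null replicate 1 was. The share of all genes lower moved too, to 6.44%, 1.1%, 1.39% and 2.07% in these fits in that order. Of the 42 genes 18 changed sign on average when some lung was left out. None of them was among the 5 without overlap, whose sign cannot change when a lung is left out. Without WT replicate 1 and null replicate 3 together, 10 were lower and 1 higher, and none passed the adjusted threshold, which 23 of all genes did. In that fit 8.74% of all genes were lower and 5.78% higher at an unadjusted p under 0.05.

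**Figure D1:**
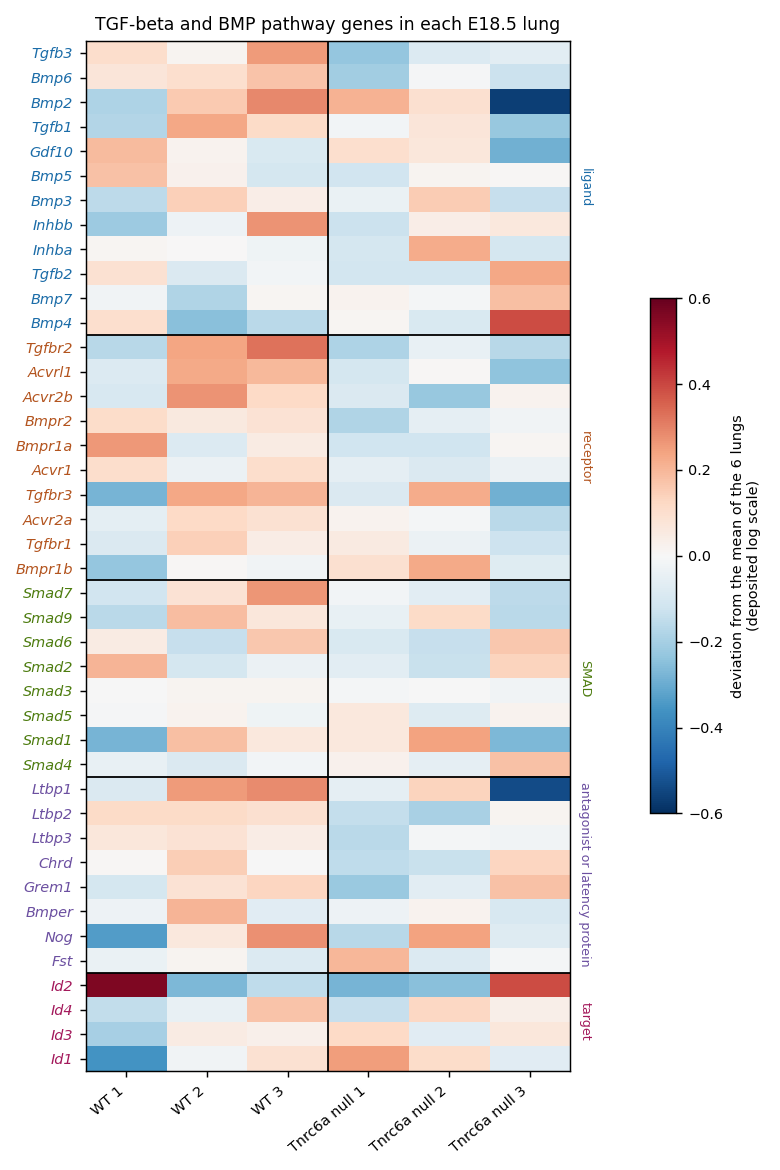
Deviation of each pathway gene from its mean over the 6 lungs, in colour on the deposited log scale, with genes in rows grouped by role and lungs in columns. WT replicates 2 and 3 are red in most receptor rows and WT replicate 1 is not, and *Id2* is red in WT replicate 1 and null replicate 3 alone, at 9.88 and 9.71 against 9.04 to 9.17 in the other lungs.

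Promoter sequence was available for 30 of the 42 genes, in windows of 250 bases before the annotated start (RefSeq, GRCm38.p6). Shown are the windows of *Bmp6*, *Bmpr2*, *Ltbp2* and *Ltbp3*, the genes with no overlap between genotypes for which a window was at hand (*Tgfb3* had none), so that the SMAD motifs of the genes with the clearest separation can be seen. Capitals mark the SMAD box (CAGAC, or GTCTG on the other strand) and the GC-rich SMAD motif (GGCGCC, the same on both strands), which can share a base. The window of *Bmp6* is chr13:38345466-38345715 (plus strand), that of *Bmpr2* chr1:59764029-59764278 (plus strand), that of *Ltbp2* chr12:84876492-84876741 (minus strand) and that of *Ltbp3* chr19:5740650-5740899 (plus strand).
*Bmp6*: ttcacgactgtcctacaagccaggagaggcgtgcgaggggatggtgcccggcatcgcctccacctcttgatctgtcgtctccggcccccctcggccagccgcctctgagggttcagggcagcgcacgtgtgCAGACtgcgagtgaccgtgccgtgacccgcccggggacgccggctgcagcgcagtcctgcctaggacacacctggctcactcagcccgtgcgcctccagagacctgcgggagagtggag
*Bmpr2*: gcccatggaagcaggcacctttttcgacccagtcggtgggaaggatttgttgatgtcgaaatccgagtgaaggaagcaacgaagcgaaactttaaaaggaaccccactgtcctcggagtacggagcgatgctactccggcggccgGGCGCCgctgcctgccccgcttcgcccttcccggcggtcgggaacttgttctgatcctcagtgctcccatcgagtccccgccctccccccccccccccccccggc
*Ltbp2*: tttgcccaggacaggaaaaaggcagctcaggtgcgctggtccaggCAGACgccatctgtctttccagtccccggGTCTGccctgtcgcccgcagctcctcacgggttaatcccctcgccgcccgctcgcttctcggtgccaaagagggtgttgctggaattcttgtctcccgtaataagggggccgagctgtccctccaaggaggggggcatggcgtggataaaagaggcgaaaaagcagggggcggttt
*Ltbp3*: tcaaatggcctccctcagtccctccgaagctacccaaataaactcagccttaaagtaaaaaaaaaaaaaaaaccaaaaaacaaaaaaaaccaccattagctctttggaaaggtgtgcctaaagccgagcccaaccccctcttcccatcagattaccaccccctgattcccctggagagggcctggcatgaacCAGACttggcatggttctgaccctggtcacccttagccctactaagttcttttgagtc
A SMAD box began 119 bases before the start of *Bmp6*, 205 and 176 before that of *Ltbp2* and 58 before that of *Ltbp3*, and none was found for *Bmpr2*, whose window held the GC-rich motif 105 bases before the start. Over all windows of the pathway genes 17 of 36 (47.2%) held a SMAD box, against 42.2% of all 32851 windows, and 9 of 36 (25%) held the GC-rich motif, against 9.59%. Several windows can belong to 1 gene, and a match is a run of letters and not a measured site. All windows came from 27025 genes, whether measured here or not, and were not matched in G and C content. The contrast in the GC-rich motif was not tested.

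Of the 12 ligands 8 were lower on average and 4 higher, with a median difference of -0.04, and 2 were lower at an unadjusted p under 0.05. *Tgfb3*, a TGF-beta of lung mesenchyme and mesothelium, showed the largest difference. Its signal was 7.10, 7.01 and 7.25 in the WT lungs and 6.76, 6.91 and 6.93 in null lungs. Each null lung lay below each WT lung, and the gap between the nearest lungs was narrow. The difference was -0.25 (standard error 0.093, 95% interval -0.465 to -0.042, unadjusted p = 0.0241, adjusted p = 0.89 from limma). It ranged from -0.31 to -0.19 when 1 lung was left out. *Bmp6*, a BMP made by endothelium among other cells, lay at 6.57, 6.60 and 6.67 in WT and 6.29, 6.49 and 6.37 in null lungs. The genotypes were again apart, with a difference of -0.23 (standard error 0.087, 95% interval -0.43 to -0.03, unadjusted p = 0.0277, adjusted p = 0.89 from limma). The other TGF-beta ligands did not part in this way. *Tgfb1*, the most studied of the family, had a difference of -0.11 (95% interval -0.39 to 0.17), and *Tgfb2* one of 0.01 (95% interval -0.24 to 0.26).

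*Bmp4*, the BMP of the distal lung buds, had the largest positive difference of the list. It lay at 8.07, 7.72 and 7.81 in WT and 7.98, 7.88 and 8.36 in null lungs, so that the genotypes overlapped. The difference was 0.21 (standard error 0.139, adjusted p = 0.897 from limma), and ran from 0.063 without null replicate 3, its highest lung, to 0.308 without WT replicate 1. Among the ligands *Bmp2*, a close relative of *Bmp4*, varied most with a single lung. Null replicate 3 stood at 4.73 and the other 5 lungs between 5.11 and 5.58. The difference of *Bmp2* was -0.17 (95% interval -0.65 to 0.30) and turned to 0.065 without null replicate 3. Of the remaining ligands, *Bmp7* stood at 0.13, *Gdf10* at -0.08, *Bmp5* at -0.06 and *Bmp3*, which opposes other BMPs, at -0.02, all with overlap. The activin subunit genes *Inhba* and *Inhbb* stood at 0.01 and -0.02.

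Among the receptors 9 of 10 were lower on average, with a median difference of -0.135, and 1 of these lay at an unadjusted p under 0.05. *Bmpr2*, the type II receptor of BMPs whose loss is known from pulmonary arterial hypertension, lay at 9.45, 9.40 and 9.43 in WT and 9.16, 9.29 and 9.32 in null lungs. The WT lungs were within a narrow range and all null lungs were below it. The difference was -0.17 (standard error 0.072, 95% interval -0.33 to -0.01, unadjusted p = 0.0431, adjusted p = 0.89 from limma). *Tgfbr2*, the type II receptor of TGF-beta, had a larger difference of -0.26 but a wider spread (standard error 0.124, 95% interval -0.55 to 0.02). It lay at 8.41, 8.81 and 8.90 in WT and 8.39, 8.53 and 8.41 in null lungs. WT replicate 1 was among the null lungs. The difference was -0.41 with that lung left out and -0.17 with WT replicate 3 left out. *Acvrl1*, the endothelial type I receptor, had 8.06, 8.37 and 8.34 in WT and 8.04, 8.15 and 7.90 in null, and a difference of -0.23 (95% interval -0.47 to 0.01). There too WT replicate 1 was among the null lungs. Without WT replicate 1 and null replicate 3, *Tgfbr2* stood at -0.395, with an adjusted p of 0.0816 from limma. Both lungs were found from the data, so this p-value is too small.

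The type I receptors *Bmpr1a*, *Acvr1* and *Tgfbr1* had differences of -0.15, -0.12 and -0.07, and the type II receptors *Acvr2a* and *Acvr2b* of activin -0.10 and -0.20, all with overlap. *Tgfbr3*, the coreceptor betaglycan, stood at -0.10, with WT replicate 1 and null replicate 3 lowest at 7.92 and 7.91 and the other lungs between 8.11 and 8.43, and ran from -0.268 without the former to 0.015 without the latter. *Bmpr1b*, another type I receptor of BMPs, was the exception in sign at 0.17 (standard error 0.133, adjusted p = 0.899 from limma). Its signal was below the median of all genes, where 34.2% of genes were lower on average. Its lungs lay at 4.09, 4.33 and 4.30 in WT and 4.42, 4.55 and 4.25 in null and overlapped, and the difference ran from 0.092 without WT replicate 1 to 0.245 without null replicate 3. The 9 of 10 receptors lower on average were also found with quantile normalization (median -0.11) and median centring (-0.172). Median centring lowered each difference alike, so it could not make the 9 fewer. Of the 10 receptors 8 had a signal above the median, where 65.4% of all genes were lower on average.

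Markers of several cell types differed between the genotypes on average, and no marker passed the adjusted threshold. All 10 endothelial markers were lower on average in null lungs, 3 of them at an unadjusted p under 0.05. Their mean signal ran from 8.39 to 8.58 in the WT lungs and from 8.23 to 8.43 in null lungs. Of 10 markers of mesenchyme and smooth muscle 9 were lower on average, also 3 at an unadjusted p under 0.05, and the list ran from 8.73 to 8.75 in WT and from 8.60 to 8.61 in null, without overlap. All 7 alveolar type 1 markers were lower on average, 3 at an unadjusted p under 0.05, also without overlap of the list (9.47 to 9.64 in WT and 9.30 to 9.44 in null), and all 9 measured proliferation markers were higher on average, 2 at an unadjusted p under 0.05 (6.67 to 7.32 in WT and 6.81 to 7.45 in null). Each of the markers in these 4 lists had a signal above the median of all genes, where 65.4% of genes were lower on average. Of the genes above the median, 5.26% were lower and 1.51% higher at an unadjusted p under 0.05, against 2.96% and 2.46% of all genes. All 6 macrophage and leukocyte markers were lower on average, 2 at an unadjusted p under 0.05, and ran from 6.62 to 6.95 in WT and from 6.20 to 6.74 in null. All 6 cardiac markers were also lower on average (6.16 to 6.36 in WT and 5.81 to 6.48 in null), and all 3 liver markers higher (4.67 to 5.35 in WT and 4.61 to 6.21 in null, highest in null replicate 3). Of 7 alveolar type 2 markers 4 were lower and 3 higher. For all of these lists their part in the differences of the pathway genes was not tested.

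**Figure D2:**
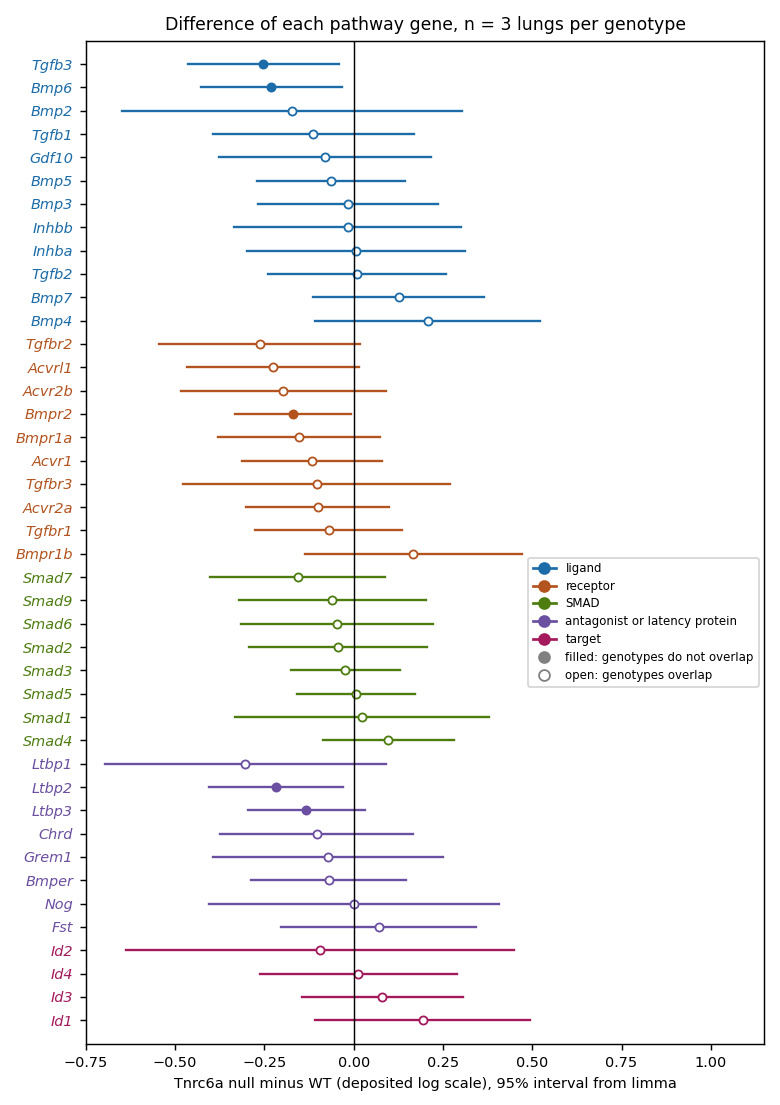
Difference of each pathway gene, *Tnrc6a* null minus WT on the deposited log scale (horizontal axis), with the 95% interval from limma as a line and colour by role. Filled points mark the 5 genes whose genotypes do not overlap, all left of 0, and open points the others. The intervals of *Tgfb3*, *Bmp6*, *Bmpr2* and *Ltbp2* lie below 0 before adjustment.

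None of the 8 SMADs lay at an unadjusted p under 0.05, and 5 were lower and 3 higher on average. *Smad3*, a receptor SMAD of TGF-beta, lay at 7.75, 7.77 and 7.77 in WT and 7.74, 7.75 and 7.73 in null lungs, with a difference of -0.02 (95% interval -0.18 to 0.13). *Smad5*, a receptor SMAD of BMPs, stood at 0.01 (95% interval -0.16 to 0.17). *Smad1* and *Smad9*, the other BMP SMADs, stood at 0.02 and -0.06, and *Smad2*, which *Smad3* accompanies, at -0.04. *Smad4*, the common SMAD, had the highest difference of the role, at 0.10 (standard error 0.081), with 8.24, 8.20 and 8.27 in WT and 8.31, 8.23 and 8.46 in null, and stood at 0.03 without null replicate 3. *Smad7*, the inhibitory SMAD induced by TGF-beta, had the largest in size, at -0.16 (standard error 0.107), with 6.74, 6.94 and 7.12 in WT and 6.84, 6.79 and 6.70 in null. *Smad7* stood at -0.25 without WT replicate 1 and at -0.06 without WT replicate 3. Both overlapped between genotypes. The inhibitory SMAD of the BMP branch, *Smad6*, stood at -0.05. The median of the 8 SMADs was -0.033 and turned to 0.009 with quantile normalization, where 4 were lower and 4 higher.

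Of the 8 antagonists and latency proteins 6 were lower on average and 1 higher, with a median difference of -0.088. The 3 latent TGF-beta binding protein genes had the 3 largest differences of this role, all negative. *Ltbp2*, a matrix protein gene of elastic fibres, lay at 7.24, 7.24 and 7.22 in WT and 6.98, 6.93 and 7.14 in null lungs. The WT lungs were nearly alike and the null lungs all lower, with a difference of -0.22 (standard error 0.082, 95% interval -0.40 to -0.03, unadjusted p = 0.0282, adjusted p = 0.89 from limma). *Ltbp3*, which binds latent TGF-beta for secretion, lay at 8.81, 8.83 and 8.79 in WT and at 8.58, 8.73 and 8.72 in null. These lungs did not overlap either, but the difference of -0.13 (standard error 0.072, 95% interval -0.30 to 0.03, unadjusted p = 0.0988) missed the unadjusted threshold. *Ltbp1* had the largest difference of the list, -0.30 (standard error 0.173, 95% interval -0.70 to 0.09), and overlapped. It lay at 6.87, 7.21 and 7.24 in WT and 6.90, 7.09 and 6.42 in null, and the difference was -0.11 without null replicate 3, its lowest lung.

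The secreted antagonists stood nearer to 0. *Grem1*, which encodes gremlin, stood at -0.07, *Chrd*, which encodes chordin, at -0.10, *Nog*, which encodes noggin, at 0.00, and *Bmper*, a modulator of endothelial BMP signalling, at -0.07, all with overlap. *Fst*, which encodes the activin binding protein follistatin, lay at 4.48, 4.54 and 4.44 in WT and 4.72, 4.44 and 4.51 in null. Its difference of 0.07 was -0.01 without null replicate 1, the highest lung. *Grem1*, *Chrd*, *Nog* and *Fst* had a signal below the median of all genes.

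**Figure D3:**
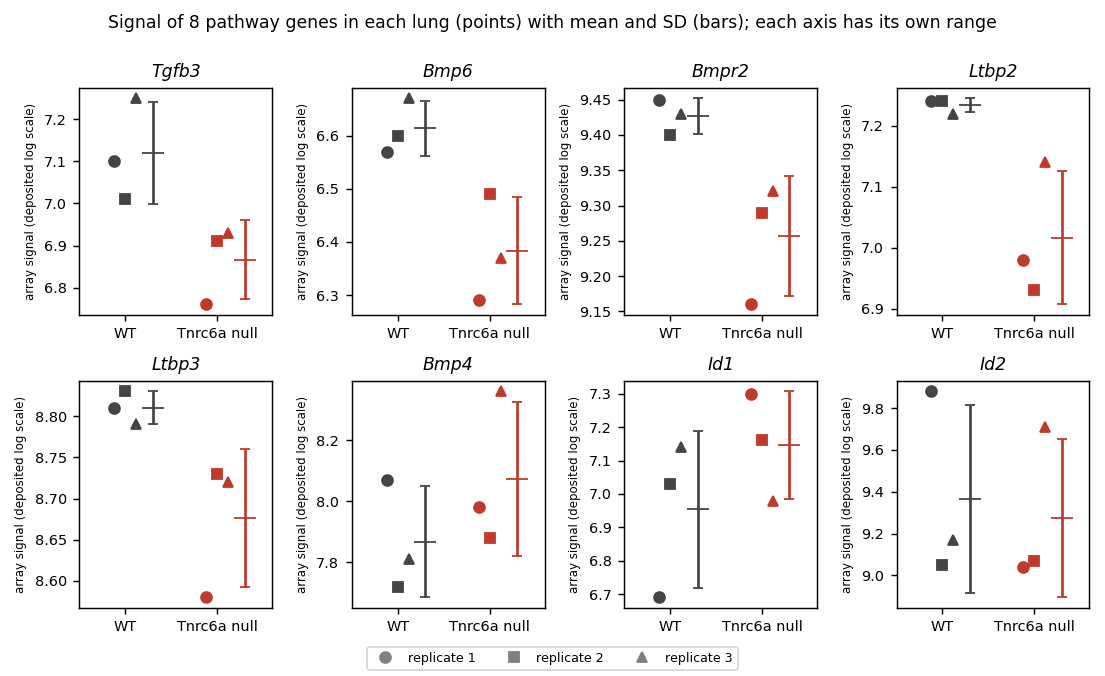
Array signal of 8 pathway genes on the deposited log scale, with 1 point per lung, a marker shape per replicate number and bars for the mean and SD of 3 lungs. Each panel has its own vertical range. WT lungs lie above null lungs in *Tgfb3*, *Bmp6*, *Bmpr2*, *Ltbp2* and *Ltbp3*, whereas in *Bmp4*, *Id1* and *Id2* they overlap.

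The Id genes encode inhibitors of basic helix-loop-helix factors and are direct targets of BMP SMADs. *Id1* lay at 6.69, 7.03 and 7.14 in WT and 7.30, 7.16 and 6.98 in null lungs. WT replicate 1 was the lowest and null replicate 3 the second lowest, and the genotypes overlapped. The difference was 0.19 (standard error 0.132, 95% interval -0.11 to 0.49, adjusted p = 0.897 from limma), and ran from 0.062 without WT replicate 1 to 0.287 without WT replicate 3. *Id3* stood at 0.08 (95% interval -0.145 to 0.305) and *Id4* at 0.01 (95% interval -0.26 to 0.29). *Id2* varied more than any other target, with SDs of 0.45 in WT and 0.38 in null lungs. It lay at 9.88, 9.05 and 9.17 in WT and 9.04, 9.07 and 9.71 in null, with WT replicate 1 and null replicate 3 high and the 4 other lungs close together. The difference of *Id2* was -0.09 (95% interval -0.64 to 0.45) and ran from -0.312 without null replicate 3 to 0.163 without WT replicate 1. *Id2* was described for these values after they were seen. The median of the 4 targets was 0.047, with 3 higher on average, and it was 0.051 with quantile normalization and 0.01 with median centring, each with 2 higher and 2 lower. Without WT replicate 1 and null replicate 3 it was -0.035, with 3 lower and 1 higher.

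Averaged by role, the genotypes overlapped in each of the 5 groups. The mean deviation of the receptors from the mean of the 6 lungs was -0.053, 0.118 and 0.12 in WT and -0.065, -0.012 and -0.108 in null. WT replicate 1 lay between the null lungs there. For the ligands it was -0.001, 0.013 and 0.063 in WT and -0.052, 0.031 and -0.054 in null. For antagonists and latency proteins it was -0.051, 0.122 and 0.084 in WT and -0.092, -0.011 and -0.053 in null.

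Of 75 other genes of the pathway listed by role, 70 were measured, and 0 passed the adjusted threshold in limma. At an unadjusted p under 0.05, 5 were lower (7.14%, against 2.96% of all genes) and 2 higher (2.86%, against 2.46%). On average 43 were lower (61.4%, against 49.8% of all genes) and 26 higher. Without overlap, 5 were lower (7.14%, against 5.51%) and 3 higher (4.29%, against 4.67%). *Nbl1*, a secreted BMP antagonist of the DAN family, lay at 7.14, 7.36 and 7.37 in WT and 7.04, 6.99 and 6.98 in null, a difference of -0.29 (standard error 0.088, adjusted p = 0.89 from limma). *Eng*, the endothelial coreceptor endoglin that works with *Acvrl1*, lay at 8.75, 8.91 and 8.98 in WT and 8.60, 8.69 and 8.67 in null, a difference of -0.23 (standard error 0.081, adjusted p = 0.89 from limma). Both were lower in each null lung. *Itgav*, an integrin chain that takes part in the activation of latent TGF-beta, had 8.42, 8.52 and 8.51 in WT and 8.22, 8.41 and 8.25 in null, a difference of -0.19, without overlap. *Smurf1*, a ubiquitin ligase gene whose product acts on SMADs and receptors, had 7.18, 7.36 and 7.37 in WT and 7.09, 7.20 and 7.0 in null, a difference of -0.21. *Ccn2*, a target of TGF-beta in mesenchyme, had 8.77, 9.05 and 9.0 in WT and 8.60, 8.91 and 8.42 in null, a difference of -0.30. *Smurf1* and *Ccn2* overlapped between genotypes. *Itgb8*, the integrin chain that pairs with that of *Itgav*, was in the other direction at 0.30, with 4.53, 4.66 and 4.49 in WT and 4.91, 4.92 and 4.76 in null. The signal of *Itgb8* was below the median of all genes. *Tgif2*, a corepressor of SMADs, had 5.96, 6.15 and 6.06 in WT and 6.28, 6.27 and 6.26 in null, a difference of 0.21. *Tgif1*, its relative, had 6.94, 6.97 and 7.02 in WT and 7.09, 7.13 and 7.13 in null, a difference of 0.14 (unadjusted p = 0.0886 from limma). *Itgb8*, *Tgif2* and *Tgif1* did not overlap between genotypes. *Twsg1*, a secreted modulator of BMPs, had 8.48, 8.26 and 8.37 in WT and 8.17, 8.17 and 8.24 in null, a difference of -0.18 (unadjusted p = 0.0544 from limma). *Map3k7*, a kinase gene of the SMAD-independent branch, had 7.72, 7.84 and 7.91 in WT and 7.67, 7.67 and 7.68 in null, a difference of -0.15 (unadjusted p = 0.0835 from limma). These too were without overlap. The counts at an unadjusted p under 0.05 moved with the scaling: 1 lower and 2 higher with quantile normalization, and 10 lower and 1 higher with median centring. Leaving out WT replicate 1 gave 12 and 0, leaving out null replicate 2 gave 10 and 0, and leaving out WT replicate 2 gave 2 and 2. They were 1 and 1 if either WT replicate 3 or null replicate 1 was left out, and 4 and 1 if null replicate 3 was. The shares of all genes lower and higher moved too. They were 2.44% and 2.01% with quantile normalization and 5.34% and 1.58% with median centring. Without WT replicates 1, 2 and 3 in turn they were 6.44% and 2.24%, 1.1% and 1.98%, and 1.39% and 1.96%. Without null replicates 1, 2 and 3 in turn they were 2.07% and 1.6%, 3.52% and 1.97%, and 2.73% and 5.91%.

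**Figure D4:**
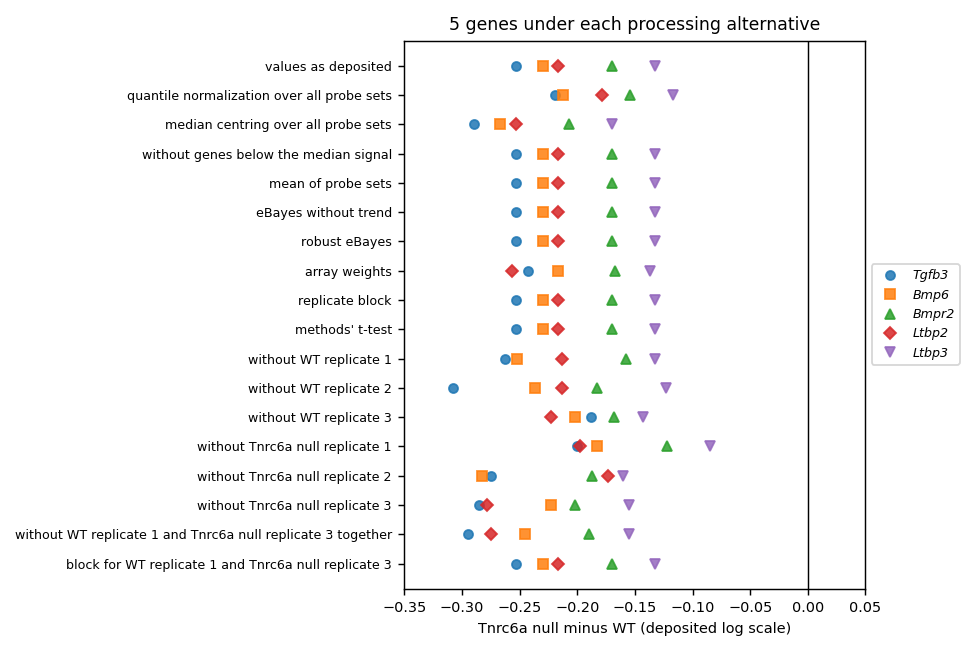
Difference of the 5 genes without overlap, *Tnrc6a* null minus WT on the deposited log scale (horizontal axis), under the values as deposited and 17 alternatives (rows), with a marker shape and colour per gene. All points lie left of 0, from -0.308 for *Tgfb3* to -0.085 for *Ltbp3*. Only quantile normalization could have changed this side. Median centring lowered each difference alike, and in the other rows the absence of overlap fixed the side in advance.

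Across the 17 alternatives each of the 5 genes remained lower in null lungs. Only quantile normalization could have changed a sign. Median centring lowered each difference alike, so a negative sign could not turn. In the other fits the absence of overlap, by which the 5 were picked, fixed the sign in advance. *Tgfb3* lay at an unadjusted p under 0.05 in 15 of the 17 alternatives, *Bmp6* in 13, *Ltbp2* in 10, *Bmpr2* in 9 and *Ltbp3* in 3. These counts reuse the lungs by which the 5 were picked, so they are no independent support. With 1 probe set per gene, the mean of probe sets gave the same differences as the main fit. The smallest adjusted p of any of the 5 genes was 0.135 from limma, for *Ltbp2* without WT replicate 1 and null replicate 3, which were found from the data. With 3 lungs against 3, an exact two-sided permutation test of a single gene cannot give a p below 0.1.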

How the data were processed

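RNA of whole E18.5 lungs from 3 WT and 3 *Tnrc6a* null embryos was measured on Affymetrix Mouse Gene ST arrays, and the sample titles gave genotype and replicate number. The authors deposited 1 value per probe set and lung, log2 by the labels. MAS5 is named in the submitters' processing notes. Its version and settings, and a genome build for the arrays, were not stated. Values ran from 0.29 to 12.49 and array medians from 4.98 to 5.03, and no further scaling was applied. Signal over background could not be judged without scanner files, which are not used here, and the number of arrays limits the precision.

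Of 35045 probe sets, 21789 carried 1 gene symbol, and 21698 of these were brought to current symbols by Entrez ID (GRCm38.p6). The brightest stood for a gene, which gave 19938 genes. Each of the 42 pathway genes had 1 such probe set. limma 3.58.1 under R 4.3.3 fitted all genes at once (eBayes with trend), and p-values were adjusted by Benjamini-Hochberg, with calls at 0.05. Summaries and plots used Python 3.11.15, pandas 2.3.3 and matplotlib 3.10.9. The fit was tested on simulated data. Motifs were searched on both strands in RefSeq promoter windows.

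The pathway genes, the lists and the 17 alternatives (scaling, filter, probe set, prior, weights, replicate block, the methods' t-test and lungs left out) were chosen with earlier results of these data known. Values per lung are given for genes at an unadjusted p under 0.05 or without overlap, and in each role for the highest difference and the one largest in size. Those of *Bmp2*, *Acvrl1*, *Smad3*, *Tgfbr3* and *Id2* were added after their values were seen. Nothing was tested as a list.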

Additional observations from a re-analysis of the deposited data

How the results depend on the processing

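The count of 0 pathway genes past the adjusted threshold was the same in each of the 17 alternatives, the methods' t-test among them, and the median difference stayed negative, between -0.107 and -0.038. Pathway genes lower at an unadjusted p under 0.05 numbered 4 with the values as deposited, 2 with quantile normalization, eBayes without trend or the replicate block, 7 with median centring or array weights, 0 to 8 without 1 lung, 10 without WT replicate 1 and null replicate 3, and 9 with a block for both. The share of all genes lower moved with them, from 2.96% to 2.44% (quantile), 1.84% (no trend), 2.15% (replicate block), 5.34% (centring), 7.07% (weights), 8.74% (both lungs out) and 8.42% (their block). Pathway genes higher numbered 1 and 2 in the last 2 fits (*Bmp4*, and *Id1* with the block), or less than the 5.78% and 6.48% of all genes. Genes without overlap, null lower, numbered 5, 3 with quantile normalization, 5 to 13 without 1 lung (8, 9 and 13 with null replicate 2, null replicate 3 or WT replicate 1 left out) and 18 without both lungs. Null higher, they numbered 1 with quantile normalization, 0 to 3 without 1 lung and 4 without both lungs. Leaving lungs out makes separation of the genotypes easier by construction. The share of all genes without overlap was not taken in these other fits, so these counts cannot be set against it.

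Other pathway genes lower numbered 5, 1 with quantile normalization or eBayes without trend, 10 with centring, 11 with array weights, 3 with the methods' t-test, 1 to 12 without 1 lung, 14 without both lungs and 12 with their block. Those higher numbered 2, 1 with centring, the filter on dim genes, the replicate block or without both lungs, 0 to 2 without 1 lung, and 5 with the block for both. Of all genes, 3.14% were lower with the methods' t-test. Higher were 1.58% with centring, 1.51% with the filter and 1.98% with the replicate block. Without both lungs 5.78% were higher, and with their block 6.48%. *Tnrc6a* lost its call with the methods' t-test after adjustment (-1.933, adjusted p = 0.551) and without WT replicate 3 (adjusted p = 0.0552), and ranged from -2.01 to -1.805 without 1 lung. *Fst* changed sign without null replicate 1 (-0.012, against up to 0.128 without another lung). The cause of these shifts was not tested.

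Replicate numbers did not pair the lungs: deviations of same-numbered lungs from their genotype means correlated at -0.295, 0.361 and -0.162, whereas WT replicate 1 and null replicate 3 correlated at 0.538. The replicate block called 0 pathway genes after adjustment. WT replicate 1 and null replicate 3 were found from the data, so p-values without them or with a block for them are too small. With 3 arrays per genotype the 95% interval, not adjusted for the number of genes, held 0 in all but 4 of the 42 pathway genes. These 4 did not pass the adjusted threshold either. For the other genes, differences of either sign inside the interval were not excluded.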
